A study of Mus musculus with 8 samples.

Results

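Il4ra, Il13ra1, Il13ra2, Il2ra, Il2rb, Il2rg, Il15ra, Il7r and Il21r, which encode receptor chains for type 2 and common gamma chain cytokines, were examined in mouse wound skin together with Il15, the ligand of Il15ra. These 10 genes were taken by symbol from a count table of 18540 genes, and all 10 were among the 15147 genes that passed the filter on low counts. They were picked with earlier results of the same comparison in view, so their differences between the groups are a description and support nothing by themselves. The skin came from full-thickness wounds on the back of mice that had received PBS (control, 4 samples) or Z1C2Z (4 samples), a nanocomposite of ZnO2 and CeO2 in the zeolitic framework ZIF-8 made with the higher CeO2 ratio, injected around the wound, and it was collected after 15 days of treatment. The study used C57BL mice of 6 weeks and diabetic db/db mice of 10 weeks, which lack a working leptin receptor. The methods do not say which of these strains was sequenced, and each mouse carried a pair of wounds. Neither the labels nor the methods say that the samples came from separate animals, so the standard errors and p-values measure only the spread between these samples.

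IL-4 is bound by the chain encoded by Il4ra, which then pairs either with the common gamma chain encoded by Il2rg or with the IL-13 binding chain encoded by Il13ra1. The common gamma chain also completes the receptors for IL-2, IL-7, IL-9, IL-15 and IL-21, and these receptors signal through Janus kinases to STAT6, STAT5 or STAT3. In skin, the chains for IL-4 and IL-13 are carried by fibroblasts, keratinocytes and macrophages as well as lymphocytes, whereas the chains for IL-2, IL-7 and IL-21 belong mostly to lymphoid cells.

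Il4ra, Il2ra and Il15ra were lower in Z1C2Z skin than in control skin by 2.57-fold, 2.21-fold and 2.21-fold, and their groups did not overlap. For the other 7 genes the groups overlapped. In edgeR's quasi-likelihood fit across all genes with Benjamini-Hochberg adjustment, these same 3 genes were lower at an adjusted p under 0.05, against a background of 583 of 15147 genes (3.85%), and 0 of the 10 were higher, against 4.28% of all genes. At an unadjusted p under 0.05 the edgeR test had 8 lower and 0 higher, and DESeq2 called 6 lower and 0 higher. Over all genes, 8.82% were lower and 8.45% higher without overlap. Of the 10 genes, 9 had a log2 fold change below 0 and Il15 had one above it. Their median log2 fold change was -0.70, beside 0.01 over all genes tested, of which 48.9% were below 0. Nothing is read from these counts, because the genes were chosen on this contrast. The gene nearest the threshold on its lower side was Il4ra, with an edgeR adjusted p of 0.0414, and the nearest beyond it was Il13ra1, at 0.0537.

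These calls, along with every other call of the table, were lost when 1 of several libraries was left out. With 1 sample left out, log2 fold changes were -1.62 to -1.16 for Il4ra, -1.27 to -0.84 for Il2ra and -1.26 to -1.04 for Il15ra. Without Z1C2Z-1, without Z1C2Z-2, without Z1C2Z-4 or without control-5, 0 of the 10 genes and 0 genes of the whole table were called by edgeR, while 6, 6, 6 and 5 of the 10 were lower at an unadjusted p under 0.05. Without control-2 the only one called was Il15ra, without control-1 Il2ra, Il2rg and Il15ra were called, and without control-3 or without Z1C2Z-5 there were 5.

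**Figure D1:**
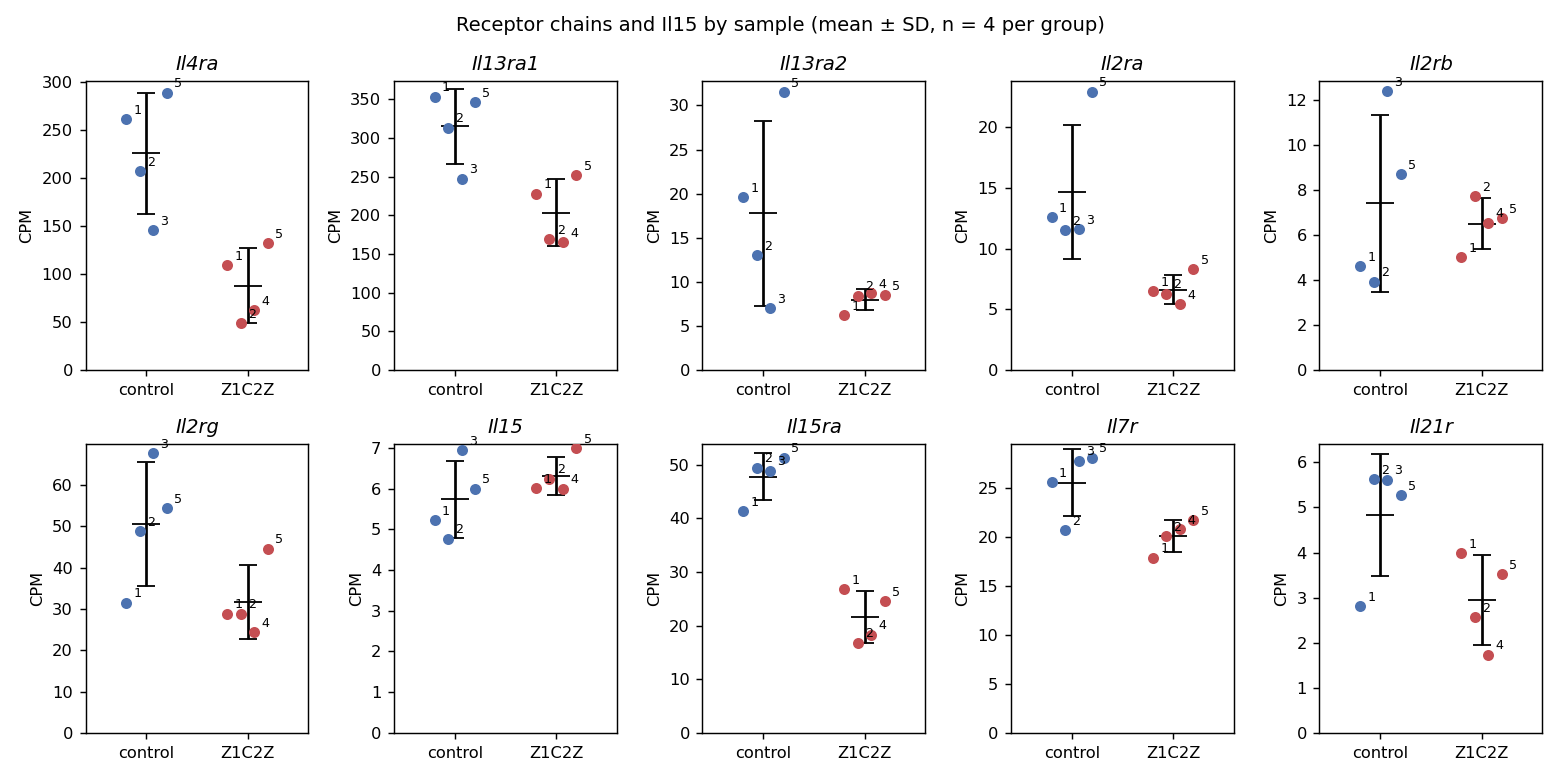
Normalised read counts in CPM (reads in each 1000000 of the TMM-scaled library, y axes from 0) of the 10 genes in the 4 control (blue) and 4 Z1C2Z (red) samples; each point is 1 sample with its number, and bars are the mean ± SD. The groups are apart for Il4ra, Il2ra and Il15ra, and overlap in the other 7 panels.

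The DNA upstream of the 3 genes whose groups did not overlap is shown because the comparison turned on these genes. It was taken from a promoter table on the GRCm38.p6 build, which had entries for 8 of the 10 genes. It lies at chr7:125552021-125552270 for Il4ra, chr2:11642542-11642791 for Il2ra and chr2:11705043-11705171 for Il15ra, all on the plus strand and written 5′ to 3′. For Il4ra and Il2ra these are the 250 bases before the start in the promoter table. For Il15ra the stretch is cut to the 129 bases before the RefSeq gene begins, which is upstream of the first start in the promoter table, so the bases next to that start are not shown.
Il4ra: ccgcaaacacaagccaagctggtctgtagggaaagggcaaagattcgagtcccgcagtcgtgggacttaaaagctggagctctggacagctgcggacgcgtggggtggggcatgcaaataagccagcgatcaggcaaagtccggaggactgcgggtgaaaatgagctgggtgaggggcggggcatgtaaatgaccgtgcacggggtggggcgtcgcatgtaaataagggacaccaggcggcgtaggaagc
Il2ra: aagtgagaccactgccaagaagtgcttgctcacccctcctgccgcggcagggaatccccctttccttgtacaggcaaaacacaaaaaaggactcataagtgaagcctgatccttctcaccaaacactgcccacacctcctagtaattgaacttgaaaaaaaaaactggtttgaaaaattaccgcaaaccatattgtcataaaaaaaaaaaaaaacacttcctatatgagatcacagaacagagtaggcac
Il15ra: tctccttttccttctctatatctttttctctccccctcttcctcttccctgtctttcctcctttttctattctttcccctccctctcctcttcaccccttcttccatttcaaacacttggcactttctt

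Promoter windows of 300 bases, from 250 before a start to 50 after it, were searched for the STAT pattern TTCNNNGAA, for the same ends 4 bases apart, and for the AP-1 pattern TGANTCA. Each pattern is its own reverse complement, so a single search covers both strands, and the patterns were present in 8.3%, 6.95% and 7.81% of 32851 promoters. Among the 9 windows of the 8 genes there were 3 matches, printed here with the matching letters in capitals because they are the only ones in the set. They lie at chrX:147429367-147429396 on the minus strand for Il13ra2, at chr2:11705671-11705700 on the plus strand for the second annotated start of Il15ra, and at chr15:9530000-9530029 on the minus strand for Il7r.
Il13ra2: aaatatacaaaTGACTCAgatgtggaagac
Il15ra, second start: ggtggggatgcTGAGTCAcagatctgtcac
Il7r: agttcaggagcTTCAGGGAAtaccaagatg
The AP-1 letters began 193 bases before the start of Il13ra2 and 30 bases before the second start of Il15ra, and the STAT letters began 142 bases before that of Il7r. The windows of Il4ra and Il2ra held none of the 3 patterns. By base composition, Il4ra (62% G and C) and Il2ra (42.7%) lay on opposite sides of the median of all promoters (52.7%).

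Il4ra encodes the signalling chain shared by the receptors for IL-4 and IL-13. It was measured at 261, 207, 146 and 289 CPM in control samples 1, 2, 3 and 5, and at 109, 48.7, 62.2 and 132 CPM in Z1C2Z samples 1, 2, 4 and 5. The lowest control sample, control-3, stood just above the highest treated sample, Z1C2Z-5, and the treated samples themselves spread by 2.7-fold. The means were 226 ± 62.8 CPM (SD, n = 4) in control and 87.9 ± 39 CPM (SD, n = 4) in Z1C2Z skin, a log2 fold change of -1.36 ± 0.33 (SE). It rested on 5313 to 10246 reads per control sample and 1879 to 4747 per treated sample, so counting error was small beside the spread between samples. Hair shaft keratins went the other way. Their summed level was 57.6 to 316 CPM in control and 350 to 3050 CPM in Z1C2Z skin, 8 of 8 were called higher by edgeR (adjusted p under 0.05), and 0 of them was at 0 in all samples. Among the treated samples the order of Il4ra (Z1C2Z-5, -1, -4, -2) was the reverse of the order of the hair shaft sum (350, 1090, 2940 and 3050 CPM), and control-3, with the least Il4ra of its group, had the highest hair shaft sum of the controls. Leaving out Z1C2Z-2 and Z1C2Z-4 together gave a log2 fold change of -0.91 with an edgeR adjusted p of 0.299. This pair was chosen after seeing the data, and the smallest edgeR adjusted p of any gene without it was 0.28. That adjusted p therefore says little about Il4ra itself, and the part of hair shaft content in the Il4ra difference was not tested.

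Il13ra1 encodes the chain that binds IL-13 and joins the Il4ra product in the receptor of non-lymphoid cells. Its level was 353, 313, 247 and 346 CPM in control samples 1, 2, 3 and 5 and 228, 169, 165 and 252 CPM in Z1C2Z samples 1, 2, 4 and 5. The groups overlapped through a single pair, since Z1C2Z-5 lay above control-3. The means were 315 ± 48.4 and 204 ± 43.4 CPM (SD, n = 4 each), with a log2 fold change of -0.63 ± 0.17 (SE).

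Il13ra2 encodes a chain that binds IL-13 with high affinity and is known mainly as a decoy. The control samples 1, 2, 3 and 5 held 19.6, 13, 7.02 and 31.5 CPM, a 4.48-fold range that was the widest of the 10 genes. The Z1C2Z samples 1, 2, 4 and 5 held 6.2, 8.45, 8.74 and 8.48 CPM. The treated samples lay in a narrow band that reached from just below the lowest control, control-3, to below control-2. The log2 fold change was -1.16 ± 0.39 (SE), with an edgeR adjusted p of 0.0918. It depended on which controls were kept. It was -0.72 without control-5 and -0.33 without both control-1 and control-5, with edgeR adjusted p values of 0.226 and 0.445. These were the highest controls, and without control-5 the smallest edgeR adjusted p of any gene was 0.0584. Without control-3, the lowest control, it was -1.42 with an edgeR adjusted p of 0.0325. The log2 ratio of Il13ra2 to Il13ra1 within a sample was -4.33 ± 0.71 in control and -4.65 ± 0.46 in Z1C2Z skin (SD, n = 4 each), and it overlapped between the groups.

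Il2ra encodes the alpha chain that raises the affinity of the IL-2 receptor and is abundant on regulatory and activated T cells. Its level was 12.6, 11.5, 11.6 and 22.9 CPM in control samples 1, 2, 3 and 5 and 6.49, 6.3, 5.45 and 8.29 CPM in Z1C2Z samples 1, 2, 4 and 5. Control-5 stood far above the other controls, which were close to each other, and even the lowest control sample exceeded the highest treated one. The means were 14.7 ± 5.51 and 6.63 ± 1.19 CPM (SD, n = 4 each), and the log2 fold change was -1.15 ± 0.25 (SE), which was -0.84 without control-5 with an edgeR adjusted p of 0.0768. Of the regulatory T cell markers, edgeR called 0 of 6 (1 lower and 0 higher at an unadjusted p under 0.05, and 0 by DESeq2). Their summed level was 34.1 to 45.5 CPM in control and 34.8 to 41.4 CPM in Z1C2Z skin. Foxp3, the factor that defines these cells, was at 2.11 ± 0.352 and 2.12 CPM in the means of the groups, with a log2 fold change of 0.01. Ctla4 was the marker lower at an unadjusted edgeR p under 0.05. Its means were 5.09 and 2.82 CPM with overlap, and its log2 fold change was -0.85. Of the 6 markers, 4 had a log2 fold change below 0 and 2 above it. For the 10 T cell markers, with 0 called by edgeR (0 lower and 1 higher at an unadjusted p under 0.05, and Cd8a higher by DESeq2), the sums were 38.6 to 64.9 and 41.6 to 65.3 CPM.

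Il2rb encodes the beta chain shared by the receptors for IL-2 and IL-15, which is abundant on NK and memory T cells. It was at 4.62, 3.94, 12.4 and 8.7 CPM in control samples 1, 2, 3 and 5 and at 5.02, 7.72, 6.55 and 6.76 CPM in Z1C2Z samples 1, 2, 4 and 5. All treated samples fell within the control range, and the log2 fold change was -0.19 ± 0.35 (SE), which turned to 0.18 without control-3. Control-3 and Z1C2Z-2, the highest samples of their groups, also had the highest sums of the 7 NK cell markers, 35.4 and 29.8 CPM. The other control samples had NK sums of 11 to 17.8 CPM and the other treated samples 14.7 to 19.4 CPM. Control-2 and Z1C2Z-1 were the lowest of their groups in both Il2rb and the NK sum. Between these ends the order differed. Control-5 had more Il2rb than control-1 but a lower NK sum (16.8 and 17.8 CPM), and so had Z1C2Z-5 beside Z1C2Z-4 (19 and 19.4 CPM). The defining NK marker Ncr1 was scarce, at 6 to 67 reads per control sample and 16 to 65 per treated sample. Control-3 and Z1C2Z-2 also had the highest T cell marker sums, 64.9 and 65.3 CPM. The other controls had 38.6 to 41.5 CPM and the other treated samples 41.6 to 48.4 CPM. B cell marker sums were highest there too, at 8.35 and 6.24 CPM. The part of NK, T and B cell content in the Il2rb levels was not tested.

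Il2ra and Il2rb, partners in the receptor of highest affinity, therefore differed in their pattern. The log2 ratio of Il2ra to Il2rb was 1.44, 1.53, -0.1 and 1.39 in control samples 1, 2, 3 and 5 and 0.37, -0.29, -0.26 and 0.29 in Z1C2Z samples 1, 2, 4 and 5. Control-3 lay among the treated samples and the other 3 controls lay above them all. The group means were 1.07 ± 0.78 and 0.03 ± 0.35 (SD, n = 4 each). The ratio is read between samples only, since the genes differ in length.

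Il2rg encodes the common gamma chain, without which the lymphoid receptors of this family do not signal. It was at 31.5, 48.8, 67.7 and 54.3 CPM in control samples 1, 2, 3 and 5 and at 28.8, 28.8, 24.4 and 44.6 CPM in Z1C2Z samples 1, 2, 4 and 5. Control-1 lay among the treated samples, below Z1C2Z-5. The means were 50.6 ± 15 and 31.6 ± 8.86 CPM (SD, n = 4 each), with a log2 fold change of -0.68 ± 0.25 (SE) and an edgeR adjusted p of 0.115. The sum of the 7 neutrophil markers was 611 to 1560 CPM in control and 175 to 721 CPM in Z1C2Z skin, and its lowest and highest samples in each group (control-1 and control-3, Z1C2Z-4 and Z1C2Z-5) were those of Il2rg. All 7 of these markers had a log2 fold change below 0, with 0 called by edgeR, 4 lower at an unadjusted p under 0.05 and 2 lower by DESeq2. The 9 macrophage markers were also all below 0, with 0 called by edgeR (2 lower at an unadjusted p under 0.05, and 0 by DESeq2) and sums of 1970 to 2480 and 1300 to 2120 CPM. The fibroblast marker sum had the same lowest and highest samples, 54900 and 78100 CPM in control and 43100 and 60600 CPM in Z1C2Z skin. So did the macrophage sum, except that Z1C2Z-1 and Z1C2Z-5 were level at 2120 CPM. The part of neutrophils, macrophages and fibroblasts in the Il2rg levels was not tested. In bulk skin, fewer cells of a type and less RNA per cell cannot be told apart. The log2 ratio of Il4ra to Il2rg, the chains of the lymphoid IL-4 receptor, was 2.16 ± 0.81 in control and 1.40 ± 0.49 in Z1C2Z skin (SD, n = 4 each) and overlapped between the groups.

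Il15ra encodes the chain that binds IL-15 inside the producing cell and presents it to neighbouring cells that carry the beta and gamma chains. Its level was 41.3, 49.4, 48.9 and 51.3 CPM in control samples 1, 2, 3 and 5 and 26.8, 16.8, 18.3 and 24.5 CPM in Z1C2Z samples 1, 2, 4 and 5. The controls were closer together than for any other of the 10 genes, spreading by 1.24-fold, and the lowest of them stood well above the highest treated sample. The means were 47.7 ± 4.4 and 21.6 ± 4.84 CPM (SD, n = 4 each), and the log2 fold change was -1.14 ± 0.16 (SE) with an edgeR adjusted p of 0.028.

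Il15 encodes the ligand that is carried by the Il15ra product. It was low in every sample, at 5.22, 4.77, 6.94 and 6 CPM in control samples 1, 2, 3 and 5 and at 6.01, 6.24, 6 and 6.99 CPM in Z1C2Z samples 1, 2, 4 and 5. The treated samples lay at or just beyond the upper part of the control range, and the log2 fold change was 0.14 ± 0.16 (SE). The ligand and its presenting chain thus differed in their pattern. The log2 ratio of Il15ra to Il15 was 2.97, 3.36, 2.81 and 3.08 in control samples 1, 2, 3 and 5 and 2.15, 1.42, 1.6 and 1.8 in Z1C2Z samples 1, 2, 4 and 5. This was the only one of the 4 ratios whose groups did not overlap, with means of 3.05 ± 0.23 and 1.74 ± 0.31 (SD, n = 4 each) and a difference of -1.31.

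**Figure D2:**
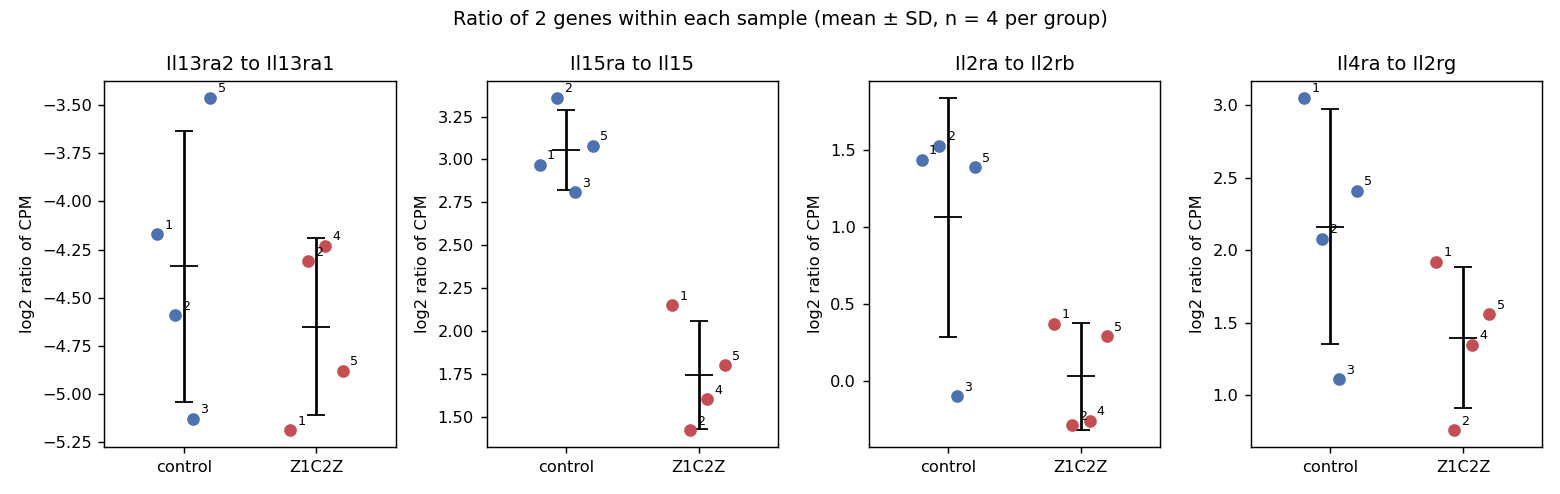
Log2 ratio of the CPM of 2 genes within each sample (y axes, each panel with its own range), for 4 control (blue) and 4 Z1C2Z (red) samples; points are samples with their numbers and bars are the mean ± SD. The ratio of Il15ra to Il15 is separated between the groups, from 2.81 upwards in control and up to 2.15 in Z1C2Z skin, while the other 3 ratios overlap.

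Il7r encodes the IL-7 binding chain, which also serves in the receptor for TSLP. It was at 25.6, 20.7, 27.8 and 28.1 CPM in control samples 1, 2, 3 and 5 and at 17.9, 20.1, 20.8 and 21.7 CPM in Z1C2Z samples 1, 2, 4 and 5. Only control-2 fell within the treated range. The log2 fold change was small, -0.34 ± 0.12 (SE), with an edgeR adjusted p of 0.102.

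Il21r encodes the IL-21 binding chain of B, T and NK cells. It was at 2.81, 5.63, 5.62 and 5.27 CPM in control samples 1, 2, 3 and 5 and at 3.98, 2.56, 1.73 and 3.52 CPM in Z1C2Z samples 1, 2, 4 and 5. Control-1 lay among the treated samples and the other controls stood above them. With 69 to 204 reads per sample this gene had the lowest counts of the 10, and its log2 fold change was -0.72 ± 0.31 (SE) with an edgeR adjusted p of 0.169. The 6 B cell markers were scarce, with sums of 1.63 to 8.35 CPM in control and 2.64 to 6.24 CPM in Z1C2Z skin.

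**Figure D3:**
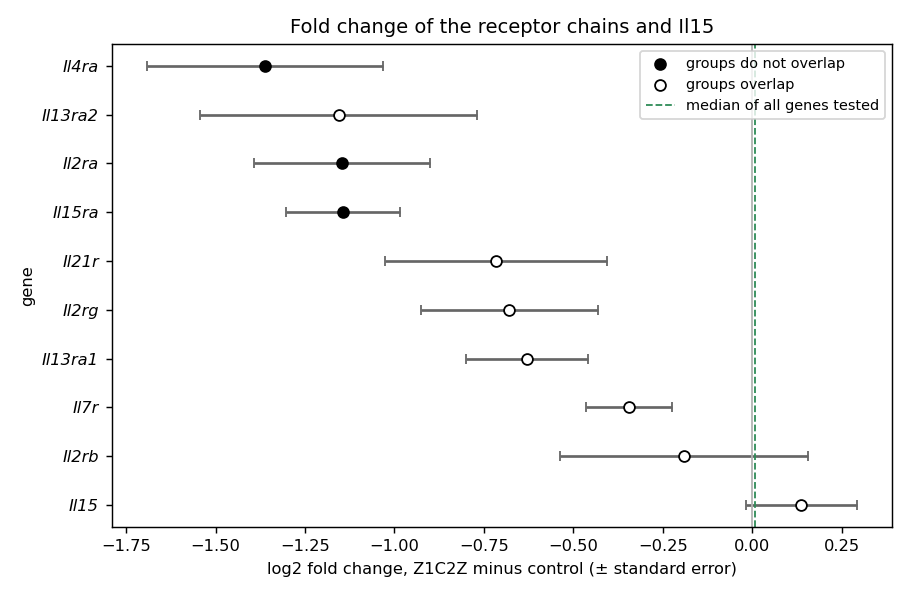
Log2 fold change, Z1C2Z minus control (x axis), of the 10 genes, with bars of 1 standard error from edgeR; filled points are genes whose groups do not overlap, and the dashed line is the median of all genes tested. Il4ra has the lowest value, -1.36, and Il15 is the only gene to the right of 0.

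Levels were compared between genes as CPM per kilobase of exon. In control skin the order ran from Il13ra1 (84.8, samples 66.5 to 95.1) and Il4ra (37.6, 24.3 to 48.2) through Il2rg (21.2, 13.2 to 28.4), Il15ra (10.7, 9.29 to 11.5), Il13ra2 (7.79, 3.08 to 13.8) and Il7r (5.48, 4.44 to 6.03) to Il2ra (2.57, 2.01 to 4.01), Il15 (2.54, 2.11 to 3.07), Il2rb (1.73, 0.919 to 2.89) and Il21r (1.45, 0.845 to 1.69). The chains of the non-lymphoid IL-4 and IL-13 receptor thus headed the order. The sample ranges separated Il13ra1 from Il4ra, Il2rg from Il15ra, and Il7r from Il2ra, and overlapped between all the other neighbours. In Z1C2Z skin Il13ra1 (54.8) still led, followed by Il4ra (14.7, samples 8.11 to 22.0) and Il2rg (13.3, 10.2 to 18.7), whose ranges overlapped, and then by Il15ra (4.86), Il7r (4.32), Il13ra2 (3.49), Il15 (2.79), Il2rb (1.52), Il2ra (1.16) and Il21r (0.887). In that order the sample ranges separated Il13ra1 from Il4ra, Il2rg from Il15ra, Il7r from Il13ra2, and Il15 from Il2rb, and overlapped between the other neighbours. The main change of place was that of Il2ra, the seventh in control and the ninth in Z1C2Z skin, below Il15 and Il2rb, although its treated samples (0.954 to 1.45) overlapped those of Il2rb (1.17 to 1.8).

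**Figure D4:**
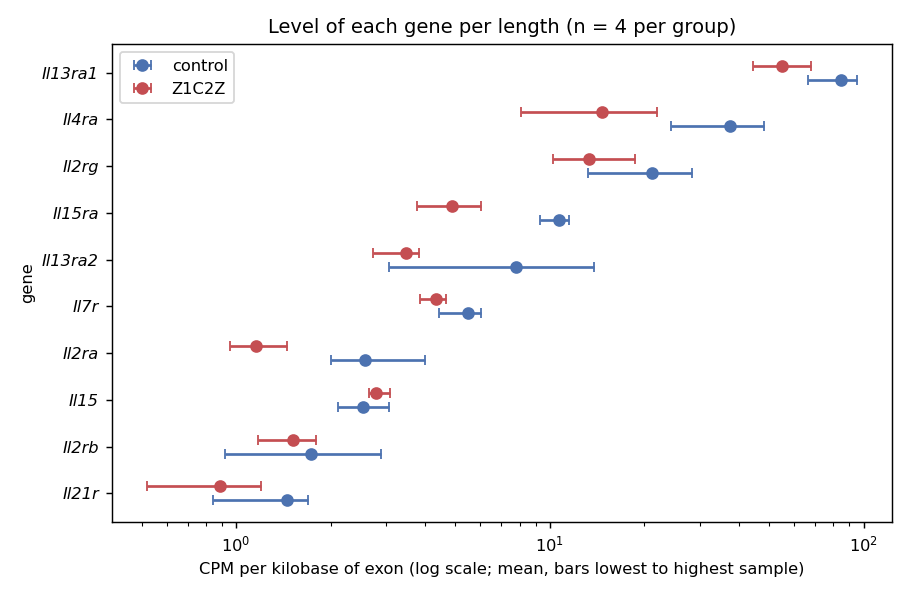
Level of each gene in CPM per kilobase of exon (x axis, log scale) in control (blue) and Z1C2Z (red) skin; points are means of 4 samples and bars run from the lowest to the highest sample. Il13ra1 is the highest of the 10 genes in both groups and Il21r the lowest.

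The genes most like each of the 3 were found by the mean absolute difference of log2 CPM profiles over the 8 samples, each profile centred on its own mean. For Il4ra they were Osmr (0.09), the receptor chain for oncostatin M, the metal transporter gene Slc39a14 (0.12) and Glis3 (0.15). For Il2ra they were 4930503B20Rik (0.10), Pakap (0.11) and Tnfrsf12a (0.11), the receptor for TWEAK. For Il15ra they were Sh3pxd2b (0.09), Ccbe1 (0.10) and Hivep2 (0.12). Since the difference between the groups is part of each profile, genes that differ by a like amount come out as alike. Among the 10 genes themselves the closest pair was Il2rg and Il21r (0.23), followed by Il15 and Il7r (0.24) and by Il2ra and Il15ra (0.26), and the farthest was Il4ra and Il2rb (0.91).

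Of 48 other genes of the same pathways, 41 were tested, and edgeR called 5 lower (Jak2, Stat3, Socs2, Socs3 and Tgm2) and 0 higher in Z1C2Z skin, beside 3.85% and 4.28% of all genes. At an unadjusted p under 0.05 there were 18 lower and 2 higher, and DESeq2 called 13 lower and 1 higher. The pathway lists were also chosen with earlier results of these data known, so nothing is read from these counts. The 5 calls were likewise lost, with every other call of the table, when 1 of several libraries was left out. Without Z1C2Z-1, without Z1C2Z-2, without Z1C2Z-4 or without control-5, 0 were called, and 12, 11, 14 and 13 were lower at an unadjusted p under 0.05.

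The ligands other than Il15 were scarce. Il2 was counted at 1 to 8 reads per control sample and 2 to 10 per treated sample, and Il4 at 3 to 9 and 0 to 10. Il9, Il13 and Il21 had at most 6 reads in any sample, so none of these 5 was tested and differences were not detectable at this depth. The tested ligands were Il7, with a log2 fold change of 0.28, and Tslp, an epithelial cytokine, at -0.75, with 0 called by edgeR, 0 at an unadjusted p under 0.05 and 0 by DESeq2. Of the partner receptor chains, Crlf2, which joins the Il7r product in the TSLP receptor, had means of 5.43 ± 1.27 and 3.52 ± 0.469 CPM (SD, n = 4 each) without overlap and an edgeR adjusted p of 0.0843. Il9r was at 0.331 and 0.559 CPM in the means. Neither was called by edgeR, with 1 lower at an unadjusted p under 0.05 and 1 lower by DESeq2.

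All 8 Janus kinases and STAT factors had a log2 fold change below 0, with a median of -0.51, and edgeR called 2 of them. At an unadjusted p under 0.05 edgeR had 7 lower and 0 higher, and DESeq2 called 6 lower (Jak1, Jak2, Jak3, Stat3, Stat5b and Stat6) and 0 higher. Jak2, a kinase of many cytokine and growth factor receptors, was at 189, 159, 156 and 225 CPM in control samples 1, 2, 3 and 5 and at 99.8, 78.1, 77.4 and 126 CPM in Z1C2Z samples 1, 2, 4 and 5. The groups did not overlap, and its log2 fold change was -0.93 ± 0.18 (SE) with an edgeR adjusted p of 0.0303. Stat3, the factor used by IL-21 and by the IL-6 family, was at 253, 285, 246 and 325 CPM in the controls and 173, 116, 157 and 203 CPM in the treated samples, in the same order. All treated samples again lay below all controls, with a log2 fold change of -0.77 ± 0.17 (SE) and an edgeR adjusted p of 0.0337. Of the others, none was called by edgeR. Jak1 had a log2 fold change of -0.50, Jak3, which binds the gamma chain, -0.75, and Stat6, the factor of the IL-4 and IL-13 receptors, -0.27 without overlap. Those of Stat5a and Stat5b, the factors of IL-2, IL-7 and IL-15, were -0.52 and -0.36.

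Among 4 feedback inhibitors of this signalling, all with a log2 fold change below 0, edgeR called 2 lower and 0 higher. At an unadjusted p under 0.05 edgeR had 3 lower and 0 higher, and DESeq2 called 3 lower (Socs1, Socs2 and Socs3) and 0 higher. Socs3, which restrains the IL-6 family and STAT3, was at 139, 64.4, 77.9 and 186 CPM in control samples 1, 2, 3 and 5 and at 31.3, 18.8, 19.1 and 39.4 CPM in Z1C2Z samples 1, 2, 4 and 5. Control-1 and control-5 were far above the other controls, and the groups did not overlap. Its log2 fold change of -2.11 ± 0.38 (SE, edgeR adjusted p 0.0299) was beyond that of any of the 10 genes. Socs2, which restrains growth hormone signalling, was at 28.7, 24.7, 29.7 and 30.5 CPM in the controls and 16.7, 16.8, 20 and 20.2 CPM in the treated samples, again without overlap, with a log2 fold change of -0.62 ± 0.11 (SE) and an edgeR adjusted p of 0.0299. Cish, a target of STAT5, had a log2 fold change of -0.12 and Socs1 of -0.91, and edgeR called neither.

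Of 18 genes known to respond to IL-4 or IL-13, edgeR called 1 lower and 0 higher, 12 had a log2 fold change below 0 and 6 above it, and the median was -0.26. At an unadjusted p under 0.05 edgeR had 4 lower and 1 higher, and DESeq2 called 2 lower (Tgm2 and Postn) and 1 higher (Egr2). Tgm2, a transglutaminase induced in macrophages, was at 100, 93.7, 92.2 and 127 CPM in control samples 1, 2, 3 and 5 and at 58, 43.6, 45.4 and 70.6 CPM in Z1C2Z samples 1, 2, 4 and 5. The groups did not overlap, and the log2 fold change was -0.93 ± 0.17 (SE) with an edgeR adjusted p of 0.0303. The most abundant of the list, Postn, a matrix protein of fibroblasts, had means of 8830 ± 2690 and 5320 ± 556 CPM (SD, n = 4 each) without overlap and an edgeR adjusted p of 0.0637. Mrc1, a macrophage receptor, had means of 617 and 394 CPM with overlap. All 7 fibroblast markers also had a log2 fold change below 0, with Dcn and Lum called lower by edgeR, 7 lower at an unadjusted p under 0.05, 6 called lower by DESeq2, and sums of 54900 to 78100 and 43100 to 60600 CPM, and their part in the Postn difference was not tested.

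Of 9 genes known to respond to IL-2 or IL-15, 7 were tested and edgeR called 0, with 3 lower and 1 higher at an unadjusted p under 0.05 and 1 lower (Gzmb) by DESeq2. Their median log2 fold change was -0.17. Ccnd2, a cyclin, had means of 228 and 274 CPM and was higher in all treated samples than in any control, with an edgeR adjusted p of 0.13, and Pim1, a kinase induced by STAT5, had means of 57 and 50.8 CPM.

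**Figure D5:**
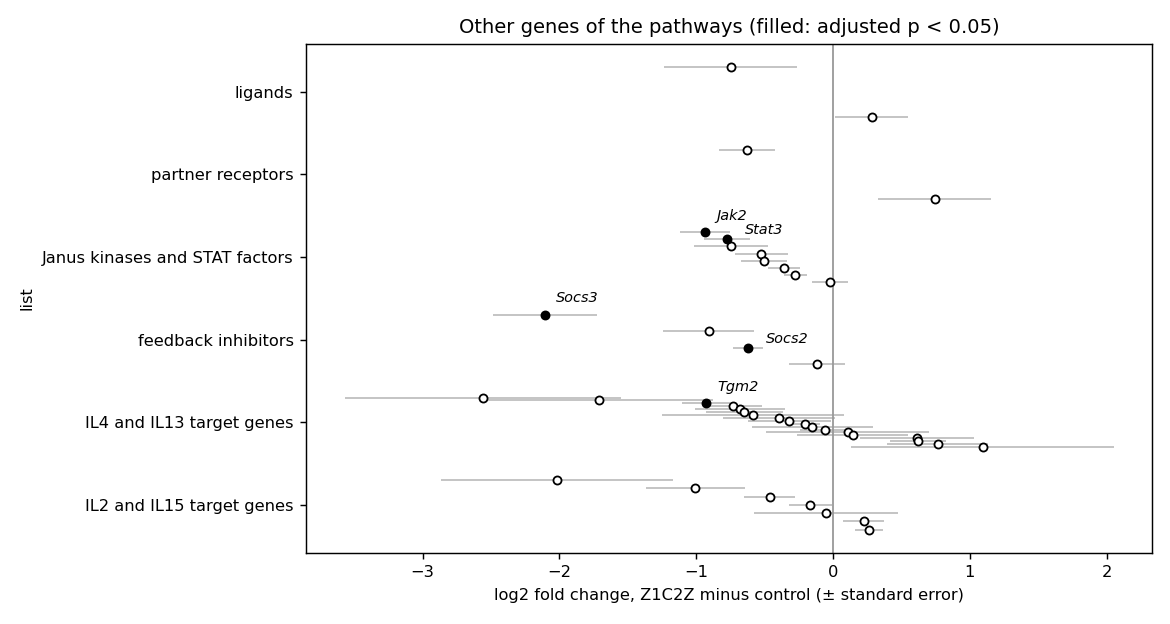
Log2 fold change, Z1C2Z minus control (x axis), of the 41 tested pathway genes by list (y axis), with bars of 1 standard error; filled, named points passed an edgeR adjusted p of 0.05. The 5 named genes all lie to the left of 0, with Socs3 at -2.11.

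The other cell type lists place these values in the tissue. Epidermal keratinocyte markers were abundant in all samples, with sums of 11700 to 14000 CPM in control and 12700 to 18000 CPM in Z1C2Z skin and 0 of 7 called by edgeR (0 at an unadjusted p under 0.05 and 0 by DESeq2). All 7 skeletal muscle markers had a log2 fold change below 0, with Acta1 and Myh1 called lower by edgeR and Ckm and Mylpf in addition by DESeq2, and their sums, 3030 to 5480 and 2550 to 2830 CPM, did not overlap. Of the ILC2 markers, Il1rl1, the receptor for IL-33, was called lower, with means of 200 and 32.3 CPM, and Gata3, which keratinocytes and hair follicles also express, was called higher, with means of 51.5 and 95.2 CPM. DESeq2 called the same genes. Of these 6 markers, edgeR had 2 lower and 2 higher at an unadjusted p under 0.05. Areg, at a log2 fold change of -1.43, and Il17rb, at 1.02, were added by that count. The control means of the list ran from 1.24 CPM for Il17rb and 1.33 CPM for Klrg1 to 179 CPM for Rora and 200 CPM for Il1rl1. Which cells carried Il1rl1 was not tested. All 6 endothelial markers were also below 0, with a median log2 fold change of -0.71, 0 called by edgeR, 3 lower at an unadjusted p under 0.05 and Pecam1 and Cdh5 called lower by DESeq2, and sums of 316 to 840 and 276 to 522 CPM. Sums were 48.7 to 77.6 and 47.1 to 56 CPM for dendritic cell, and 163 to 252 and 161 to 207 CPM for mast cell markers. No list had a gene at 0 in all samples, and the part of these cells in the receptor levels was not tested.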

How the data were processed

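Total RNA of wound skin was depleted of rRNA, fragmented and sequenced from random primed, dUTP marked cDNA. For extraction, Trizol is given in the labels and an RNA Easy Fast kit in the methods. Read counts of 18540 genes, not normalized, were deposited by the authors. The aligner, counting program, genome build and strand setting are not given in the sources used here, so reads shared with overlapping or antisense genes cannot be told apart. Groups were taken from the sample titles, in which "con" is control and "shiyan", the pinyin for experiment, is the treated group, matching the study's sample names. All sample columns of the table were used (0 left out).

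Totals were 28856790 to 38974888 counts per sample, and no libraries of a group agreed within sampling noise (chi-square per degree of freedom of at least 21.7). The closest pairs were Z1C2Z-2 with Z1C2Z-4 (21.7), Z1C2Z-1 with Z1C2Z-5 (27.6) and control-2 with control-3 (35.5). All other pairs within a group stood at 73.7 to 138. The labels do not say whether close libraries share a mouse. In R 4.3.3, genes kept by filterByExpr (15147) were normalized by TMM and tested with edgeR 4.0.16 (quasi-likelihood test, two-sided, no covariates, Benjamini-Hochberg adjustment over all genes tested, threshold 0.05). Standard errors came from the quasi-likelihood F statistic, and log2 CPM used a prior count of 2. Levels per length used the union of exons in GENCODE vM21. The fit was tested on simulated counts.

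The 10 genes and all gene lists were chosen with earlier results of these data known. All 10 were named, with every called pathway gene, the 2 most abundant tested genes of each pathway list and the 3 genes most alike to each of the 10 that was called. Genes named for their role (Jak3, Stat5a, Stat5b, Stat6, Cish, Socs1) and single markers and genes behind a count of 1 were named after their values were seen. Alternatives were DESeq2 1.42.0, RLE size factors, no filter on low counts, a minimum of 10 counts in every sample, a replicate block, each sample left out, and, chosen after seeing the data, the pairs Z1C2Z-2 with Z1C2Z-4 and control-1 with control-5 left out.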

Additional observations from a re-analysis of the deposited data

Results flagged for a closer look

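In 28 groups of 4 samples (10 genes and 4 ratios, in control and in Z1C2Z skin), 4 held a sample whose gap to its nearest neighbour was, as a share of the group's range, above Dixon's 95% critical value for 4 samples. Such a gap is found by chance in about 1 of 20 groups.

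Il2ra in control-5 stood at 22.9 CPM, above the other controls at 11.5 to 12.6 CPM. Il21r in control-1 stood at 2.81 CPM, below the other controls at 5.27 to 5.63 CPM. Il13ra2 in Z1C2Z-1 stood at 6.2 CPM, below the other treated samples at 8.45 to 8.74 CPM. The log2 ratio of Il2ra to Il2rb in control-3 was -0.1, below the other controls at 1.39 to 1.53.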

How the results depend on the processing

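Of the 10 genes, 3 were called lower with RLE size factors, with no filter on low counts and with a minimum of 10 counts in every sample, 6 with DESeq2 (which also added Il13ra1, Il13ra2 and Il2rg) and 4 with the replicate block. Leaving out 1 sample gave 0 to 5, and leaving out Z1C2Z-2 with Z1C2Z-4 or control-1 with control-5 gave 0 each, with 4 and 5 lower at an unadjusted p under 0.05 in edgeR. Of the pathway genes, 5 were called lower in the reported fit, 13 with DESeq2, 4 with the replicate block, 0 to 9 with 1 sample left out and 0 with either pair left out. Called higher were 1 with DESeq2 and 0 to 1 with 1 sample left out. The median log2 fold change of the 10 genes was -0.43 without Z1C2Z-2 and Z1C2Z-4, and -0.54 with the replicate block. The log2 fold change of Il2rb reversed its direction in the replicate block (0.24) and, among the values of -0.40 to 0.18 with 1 sample left out, without control-3 (0.18). Control-3 and Z1C2Z-4 have numbers found in 1 group only, so the block took nothing from them for the contrast. Neither of these fits of Il2rb therefore used control-3 for the comparison, and they are not separate results. The other 9 genes kept their direction in all 15 alternatives. Over all genes, 583 were called lower and 648 higher, against 1513 and 1243 with DESeq2, 253 and 301 with the replicate block, 0 to 868 and 0 to 886 with 1 sample left out, 9 and 4 without control-1 and control-5, and 0 and 0 without Z1C2Z-2 and Z1C2Z-4. The cause of these shifts was not tested. Samples of the same number in both groups deviated together with correlations of -0.101, -0.0623 and 0.323, so the numbers are not shown to pair the samples and the block has no basis in the design. Depth limits Il2, Il4, Il9, Il13 and Il21, whose reads were too few to test.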

Other observations

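In the RefSeq order of coding genes (GRCm38.p6), Il2ra and Il15ra are neighbours on chromosome 2, and Il4ra and Il21r are neighbours on chromosome 7. The centred profiles of Il2ra and Il15ra differed by a mean of 0.26 on the log2 scale over the 8 samples, and those of Il4ra and Il21r by 0.48.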
